A study of Mus musculus with 16 samples.

Results

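Promoter contacts of mouse liver were compared between ZT12, when the lights go off, and ZT18, in the middle of the dark phase. Zeitgeber time (ZT) counts the hours since lights on. Contacts were measured by Promoter Capture Hi-C, in which chromatin is crosslinked, cut with the restriction enzyme HindIII and ligated, and ligation products that hold a promoter fragment (a bait) are captured and sequenced. The comparison rests on 8 of the 16 samples of the series, 4 at each time. All animals were wild-type male C57BL/6 mice, 8 weeks old, fed ad libitum under 12 h of light and 12 h of dark. At each time 3 pools were made, each from 2 livers, and the first pool was run again on another lane. The authors merged the pools of a time before they called interactions, so each time is 1 list of fragment pairs and no difference below has a replicate error or a test. The intervals given are 95% Wilson intervals, which cover counting error only, and contacts that share a bait are not independent. The list labelled ZT12 held 151529 pairs and the list labelled ZT18 held 151347, together 194699 distinct pairs of the 247177 in the whole series. Whole livers were used, so a contact present in fewer cells and a weaker contact per cell cannot be told apart. The study's own summary of interaction totals places the total of the ZT12 list under ZT6, the total of the ZT18 list under ZT12 and that of the ZT6 list under ZT18. The sample labels were followed, and the other order is given as an alternative. For the Arntl promoter the paper describes 2 contacts at ZT18, 3 at ZT0 and none at ZT6 or ZT12. The lists as labelled hold these numbers, while the other order would place the 2 contacts at ZT12.

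In liver, BMAL1 and CLOCK bind E-boxes and drive the genes of their own repressors, the PER and CRY proteins, while the nuclear receptors REV-ERB and ROR act through ROR elements and the PAR bZIP factors and NFIL3 through D-boxes. The early dark phase is when mice feed, and the liver turns to glucose use, glycogen storage and lipid synthesis. A promoter can be joined by chromatin loops to distal elements or to other promoters, and a capture experiment reports each as a scored pair of restriction fragments. The score is that of CHiCAGO, which measures how far the reads of a pair exceed the number its distance and the technical noise predict, and only pairs of score 5 or more are listed. A pair absent from a list therefore has a score under 5 there or could not be scored, and is not shown to have no reads.

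A fragment boundary and the starts of 5 promoters are shown. Within Heatr7b1 on chromosome 1, a single HindIII site divides adjoining fragments. The fragment before the site was listed at ZT12 and not at ZT18, and the fragment after it at ZT18 and not at ZT12. Both were also listed at ZT0 and ZT6. The boundary is shown on the plus strand at chr1:90153114-90153263 (mm9), with the site in capitals, and part of the window is a Heatr7b1 exon.
Heatr7b1 boundary: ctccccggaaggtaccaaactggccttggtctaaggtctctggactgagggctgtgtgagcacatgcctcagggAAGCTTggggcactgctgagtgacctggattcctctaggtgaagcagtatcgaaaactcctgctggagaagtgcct
The promoters shown are the 250 bases before the gene start, on the strand of the gene, with E-boxes (CACGTG) or D-boxes (TTATGTAA) in capitals where the motif was found on either strand, so that a D-box of the other strand reads as its reverse complement. They are from the named promoters and clock genes whose window held such a motif, chosen with their contacts in view, and none overlaps an annotated exon. Per1 (chr11:68908469-68908718, plus strand) had an E-box at -150 from its start, and Bhlhe41 (chr6:145814079-145814328, minus strand) had an E-box at -15. Per2 (chr1:93355908-93356157, minus strand) had a D-box at -119. Gtf2a1 (chr12:92828928-92829177, minus strand) had an E-box at -13 and Gatad2b (chr3:90145326-90145575, plus strand) had a D-box at -86.
Per1: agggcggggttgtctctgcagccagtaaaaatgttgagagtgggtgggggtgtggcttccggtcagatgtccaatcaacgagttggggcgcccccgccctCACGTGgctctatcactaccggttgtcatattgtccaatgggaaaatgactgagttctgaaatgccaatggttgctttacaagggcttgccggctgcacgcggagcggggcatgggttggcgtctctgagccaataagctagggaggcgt
Bhlhe41: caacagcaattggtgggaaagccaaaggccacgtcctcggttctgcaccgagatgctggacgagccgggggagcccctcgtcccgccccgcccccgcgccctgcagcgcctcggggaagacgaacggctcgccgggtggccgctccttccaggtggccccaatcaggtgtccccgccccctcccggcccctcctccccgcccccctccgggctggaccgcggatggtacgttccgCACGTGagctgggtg
Per2: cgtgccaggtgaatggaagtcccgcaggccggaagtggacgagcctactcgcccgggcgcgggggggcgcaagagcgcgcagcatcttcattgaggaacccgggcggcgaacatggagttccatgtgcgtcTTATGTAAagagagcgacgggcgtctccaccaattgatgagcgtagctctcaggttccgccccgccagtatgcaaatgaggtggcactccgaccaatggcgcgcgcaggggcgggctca
Gtf2a1: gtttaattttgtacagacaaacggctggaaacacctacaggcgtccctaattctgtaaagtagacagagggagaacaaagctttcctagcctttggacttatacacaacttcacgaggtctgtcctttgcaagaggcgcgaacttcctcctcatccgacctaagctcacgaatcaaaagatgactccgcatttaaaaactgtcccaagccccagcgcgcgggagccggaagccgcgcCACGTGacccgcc
Gatad2b: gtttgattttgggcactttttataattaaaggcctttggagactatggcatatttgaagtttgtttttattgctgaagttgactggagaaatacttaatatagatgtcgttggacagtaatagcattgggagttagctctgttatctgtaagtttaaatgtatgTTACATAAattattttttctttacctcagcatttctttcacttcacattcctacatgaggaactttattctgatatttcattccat

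Of all pairs in either list, 108177 (55.6%) were in both, 43352 were listed only at ZT12 and 43170 only at ZT18. The losses and gains were nearly equal in number, which follows from the nearly equal lengths of the lists. Absence from the other list followed the score closely. Of the ZT12 pairs with a score from 5 to 6, 55.3% (54.8 to 55.8) were absent at ZT18, against 22.3% (21.8 to 22.9) of those from 7 to 8 and 2.53% (2.33 to 2.74) of those from 10 to 15. In the other direction the shares were 55.1% (54.6 to 55.5), 21.5% (20.9 to 22.1) and 2.47% (2.27 to 2.69). Among pairs of score 20 or more, 7 of 5235 at ZT12 and 7 of 5301 at ZT18 were absent from the other list. Pairs in both lists kept their scores: the median log2 ratio of ZT18 over ZT12 was 0.00 with an SD of 0.36 over pairs, and 565 pairs rose and 558 fell by a factor of 2 or more.

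**Figure D1:**
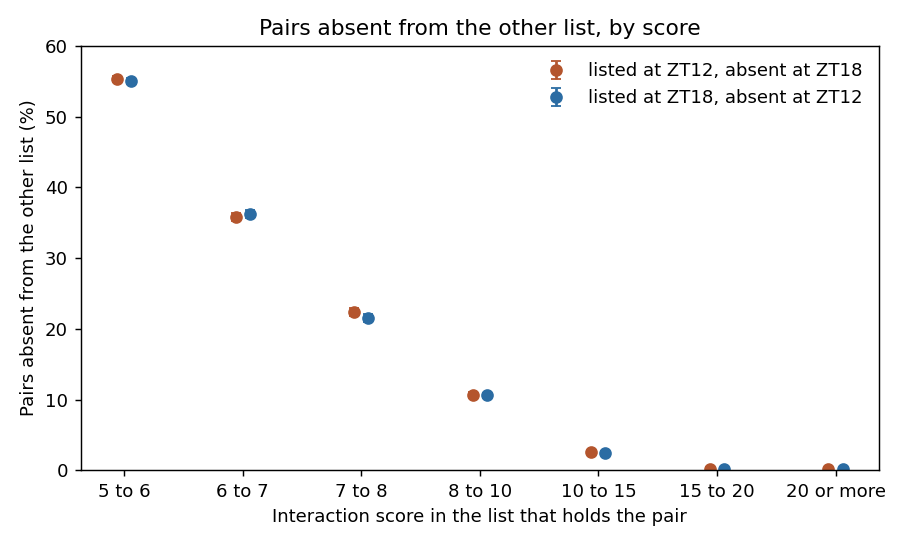
Share of pairs absent from the other list (%) against the score in the list that holds them. Points are shares, bars 95% Wilson intervals. The share falls from 55.3% at scores from 5 to 6 to 0.134% at scores of 20 or more for ZT12 pairs, and the ZT18 pairs lie beside them.

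Lost and gained pairs spanned longer distances than kept ones. The median distance between fragment midpoints was 127 kb (126 to 128) for kept pairs, 180 kb (178 to 182) for lost and 186 kb (184 to 188) for gained pairs. The share of pairs over 150 kb was 42.6%, 58.4% and 59.6%. Below 25 kb, 15.7% of the ZT12 pairs were lost and 19.3% of the ZT18 pairs were gained, so that short pairs were gained more often than lost, with 2398 gained and 1863 lost. Between 25 and 150 kb the order turned, with 15040 gained and 16181 lost. Pairs between 2 promoters made up 17.3% of kept, 14.3% of lost and 14.9% of gained pairs. Pairs that changed were listed in the light phase less often than kept ones. In neither the ZT0 nor the ZT6 list were 48.8% of lost, 48.6% of gained and 8.00% of kept pairs. At ZT0 33.4% of lost, 34.6% of gained and 82.2% of kept pairs were listed, and at ZT6 37.1%, 36.2% and 83.9%. Changed pairs also had lower scores, with a median of 5.77 for lost, 5.78 for gained and 7.96 for kept pairs. The part of the score in these differences was not tested.

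A promoter was called gaining if it had at least 5 more contacts at ZT18 and a ratio of at least 1.5 (with 1 added to both numbers), and losing by the same rule in reverse. Of the 17375 promoter fragments with a contact, 10244 had at least 5 contacts in either list and were tested. Of these, 441 gained contacts (4.30%) and 446 lost contacts (4.35%). The median net change was 0, with quartiles of -2 and 2 and an SD of 4.22 over promoters. More contacts at ZT18 were seen for 4429 tested promoters and fewer for 4558. The median gaining promoter went from 8 to 14 contacts and the median losing one from 14 to 8. Most called promoters changed in both directions. Of the gaining promoters, 313 also lost a contact, and of the losing ones 321 also gained one. Over the 5138 promoters with at least 10 contacts in both lists, the median share of contacts found in both was 60.4%. When another end within 10 kb counted as the same contact, 105 promoters gained and 66 lost contacts, and without fragments that have no pair in the other list, an alternative chosen after seeing the data, 220 gained and 202 lost.

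**Figure D2:**
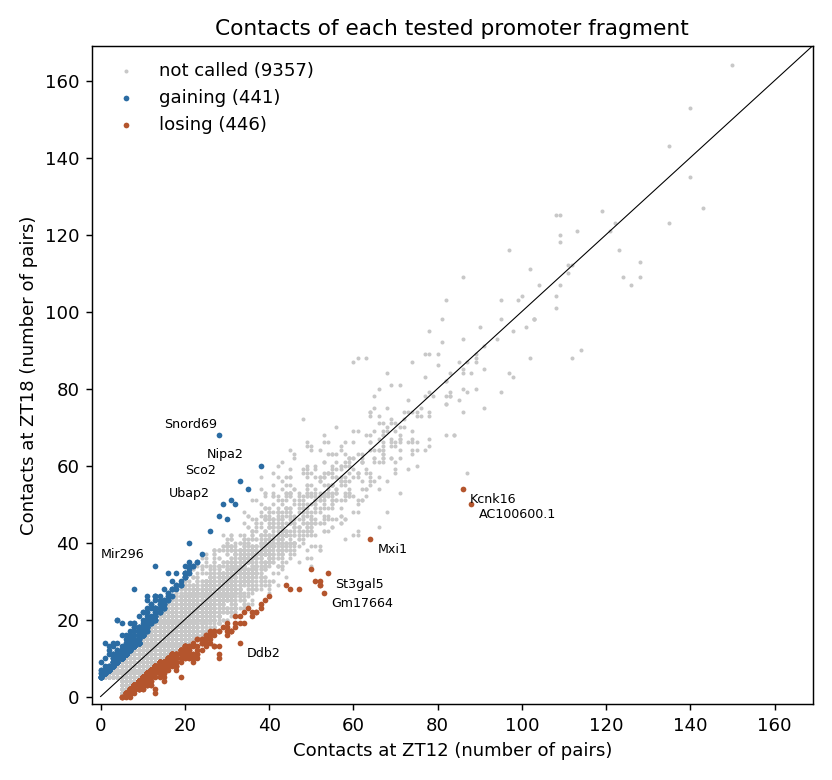
Number of contacts of each tested promoter fragment at ZT12 (x axis) and ZT18 (y axis), with the 441 gaining promoters in blue, the 446 losing promoters in orange and the line of equality. Most promoters lie along the line, with Snord69 (28 and 68) farthest above it and AC100600.1 (88 and 50) farthest below it among the named ones.

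The largest gain was at the Snord69 fragment (chr14:31823628-31828144), which holds the start of this small nucleolar RNA and overlaps its host Gnl3, a nucleolar GTP-binding protein, and Glt8d1. It had 28 contacts at ZT12 and 68 at ZT18, with 24 in common, and 44 at ZT0 and 25 at ZT6. Its strongest gained contacts were with fragments in Tmem110 (score 8.91), Nisch and Tnnc1 (8.63), Bap1 (8.12) and Capn7 (7.89). Of the 44 gained fragments, 33 lay within 10 kb of one that was contacted at ZT12. Most of the gained fragments thus lay beside existing contacts, which was also so for gained pairs over all promoters. Of all 43170 gained pairs, 13321 had no contact of the same bait within 10 kb at ZT12.

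The other named gaining promoters had smaller net changes. Sco2, a copper chaperone needed for cytochrome c oxidase, and Tymp, thymidine phosphorylase, share a fragment (chr15:89202854-89207889) that rose from 33 to 56 contacts. Pmm2, the phosphomannomutase of N-glycosylation, shares its fragment with Tmem186 and rose from 21 to 40. Nipa2, a magnesium transporter, rose from 38 to 60, with gained contacts in Cyfip1 (10.02), Herc2 (9.53) and Tubgcp5 (9.32). Gtf2a1, a subunit of the general transcription factor TFIIA, rose from 28 to 47 and lost 1 contact. Gatad2b, a subunit of the NuRD repressor complex, rose from 31 to 51, and its strongest gained contact was in Dennd4b (10.75). Each of these promoters kept most of its ZT12 contacts.

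The microRNA genes Mir296 and Mir298, which lie in the imprinted Gnas cluster, differed in this respect. Their fragment rose from 13 to 34 contacts, of which only 5 were in both lists, with 29 gained and 8 lost, and it had 36 contacts at ZT0 and 32 at ZT6. Its strongest gained contacts were in Gm14371 (9.59) and at the start of Zfp831 (8.54), at 466 kb and 378 kb. Hras1, a small GTPase, and Lrrc56 share a fragment that rose from 35 to 54, against 27 at ZT0 and 20 at ZT6. Ubap2 rose from 29 to 50, and had 83 at ZT6. A930016O22Rik, on a fragment that overlaps Ckm and Mark4, rose from 8 to 28, and its gained contacts included the promoter fragments of 1700058P15Rik (15.56), Lrrc68 (10.16) and Cd3eap (9.06). The light-phase counts show no common pattern among these promoters.

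The largest loss was at AC100600.1, a microRNA gene on a fragment (chr9:74718250-74719458) that also overlaps Onecut1, which encodes the hepatocyte transcription factor HNF6. The start of Onecut1 lies on another bait, which had 51 and 42 contacts and was not called. The AC100600.1 fragment fell from 88 to 50 contacts, with 47 in common, and had 81 at ZT0 and 109 at ZT6. The strongest lost contacts lay 538 kb (score 16.96) and 725 kb (14.43, in Wdr72) away. The median distance was 498 kb for lost and 342 kb for kept contacts of this promoter. Kcnk16, a potassium channel gene, fell from 86 to 54, and its lost contacts were likewise far, with a median of 455 kb against 180 kb for kept ones. Of the 41 contacts that AC100600.1 lost, 23 lay within 10 kb of one listed at ZT18, and of the 35 of Kcnk16, 15 did. Of all 43352 lost pairs, 12533 had no contact of the same bait within 10 kb at ZT18.

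The other named losing promoters changed by less. Phkg1, a catalytic subunit of phosphorylase kinase, which activates glycogen breakdown, fell from 52 to 29, with lost contacts in Rabgef1 (11.95) and at 0610007L01Rik (10.43). Aqp7, a channel for glycerol, fell from 51 to 30. St3gal5, the synthase of the ganglioside GM3, fell from 54 to 32, and its lost contacts lay at a median of 51.5 kb. Gm17664, on a fragment within Egfr, the receptor of epidermal growth factor, fell from 53 to 27 and lost contacts with other Egfr fragments (13.18 and 9.86). The start of Egfr lies on another bait, which had 22 and 16 contacts and was not called. Mxi1, an antagonist of MYC, fell from 64 to 41. Ddb2, a subunit of the complex that recognises damaged DNA, fell from 33 to 14, which was near its 16 contacts at ZT6 but below its 37 at ZT0.

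Gm10008 on chromosome 18 fell from 52 to 29 contacts. A fragment with a U6 small nuclear RNA gene on chromosome 19 (chr19:37305176-37313419) fell from 52 to 30, and its 4 strongest lost contacts all lay in Btaf1, with scores from 12.27 to 15.49. Over the 10 named losing promoters, between 1 and 7 contacts were gained per promoter. In the order of the study's summary, the net change of 19 of the 20 named promoters turned, the exception being Ubap2. That order takes the ZT18 list, by which they were chosen, as its start, so many turns can follow from the choice alone.

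The size of these changes depended on which pairs were counted. When another end within 10 kb counted as the same contact, the net change was under the 5 of the call for Nipa2 (3), Gatad2b (2), A930016O22Rik (2), Ubap2 (4) and Phkg1 (-4), and it was 10 for Snord69 and -18 for AC100600.1. With a score of at least 7 in both lists, Nipa2 (2) and Mir296 (4) were under 5. Without fragments that have no pair in the other list, Gm17664 (-3), Gm10008 (-2) and U6 on chromosome 19 (-4) were under 5, while Aqp7 (-21) and Ddb2 (-19) kept their values. With a score of at least 10, all gaining promoters that still had a value were between 0 and 4, and among the losing ones Phkg1 was at 0 and AC100600.1 at -20.

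**Figure D3:**
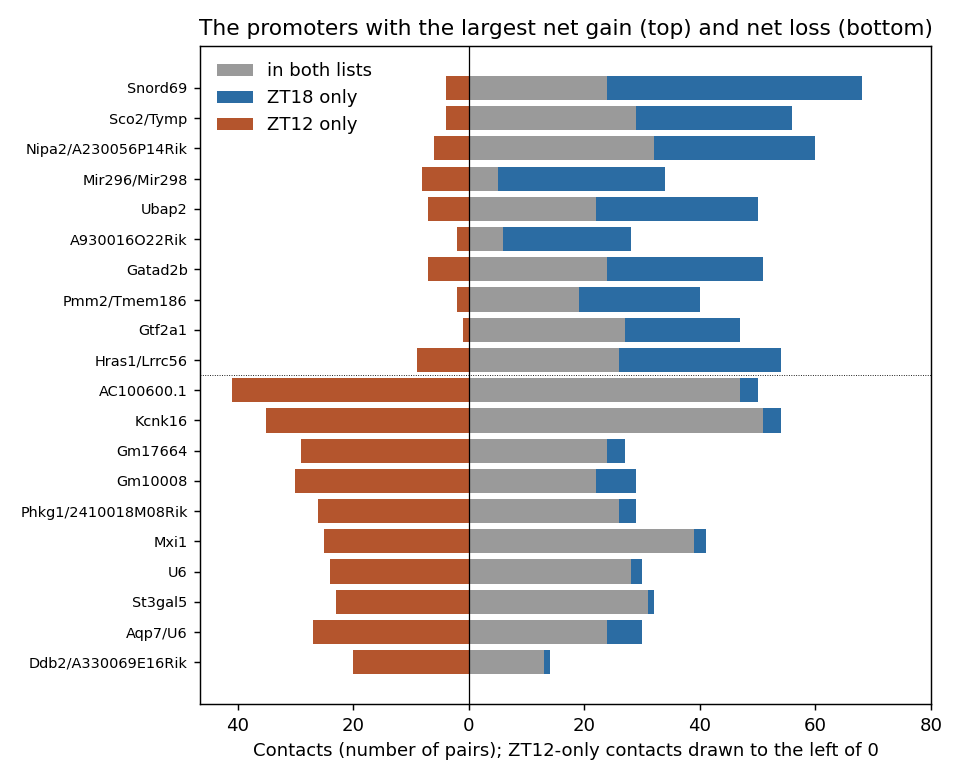
Contacts of the 10 promoters with the largest net gain (above the dotted line) and the 10 with the largest net loss (below it). Bars to the right of 0 are contacts at ZT18, grey for those in both lists and blue for those only at ZT18, and bars to the left are contacts only at ZT12. Snord69 has 44 contacts only at ZT18 and 4 only at ZT12, AC100600.1 has 3 and 41.

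Some windows of 1 Mb with large net changes are described. They were picked by counting pairs after the values were seen, and their promoter counts rest on the same pairs. Whether changes gathered in some stretches of the genome was not tested. Over 2053 windows, which differed in their number of pairs, the SD of the net change was 10.6 pairs. The window at chr7:4000001-5000000 gained 288 and lost 200 pairs, and 28 of its 42 tested promoters had more contacts at ZT18, among them Ppp1r12c (38 to 57) and Rpl28 (43 to 56). The window around Sco2 (chr15:89000001-90000000) gained 135 and lost 55, with 10 of 12 tested promoters higher, including Adm2 (7 to 19) and Ppp6r2 (14 to 26). In the Gnas window (chr2:174000001-175000000), 10 of 11 tested promoters had more contacts, with Nespas going from 16 to 32 and Slmo2 from 17 to 28. In the opposite direction, chr9:44000001-45000000 lost 140 and gained 72 pairs, and 24 of its 30 tested promoters had fewer contacts, such as Dpagt1 (26 to 17) and Treh (19 to 10). In the window of the U6 gene (chr19:37000001-38000000), 62 pairs were lost and 17 gained, and Ide, the insulin-degrading enzyme, fell from 7 contacts to 0. Promoters of a window share contacts with each other and do not count as independent.

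Clock gene promoters were examined from lists of 23 genes in 4 groups. Among the core repressors, none had more contacts at ZT18 and 2 of the 7 tested promoters were called losing (28.6%, 8.22 to 64.1), against 4.35% of all tested promoters. Per1 fell from 19 to 12 contacts, with 10 in both lists, 9 lost and 2 gained, and it had 5 at ZT0 and 7 at ZT6. Its lost contacts included fragments in Kdm6b (8.30), Trp53 (5.12) and Mpdu1 (6.74) and at the starts of Fxr2 (5.97) and Eif5a (5.86). Bhlhe41, a repressor of the same E-boxes also called DEC2, fell from 8 to 3, and its lost contacts, with scores from 5.18 to 7.16, lay between 211 kb and 409 kb away, in part within Itpr2. Per2 fell from 19 to 13 and missed the ratio. All 13 of its ZT18 contacts were among those at ZT12, and the 6 that were lost had scores from 5.36 to 6.46. These 6 were also in neither light-phase list, when Per2 had 9 contacts at ZT0 and 10 at ZT6.

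The remaining repressors were not called. Bhlhe40 and Nfil3 passed the net change of the rule but missed its ratio. Bhlhe40, with the most contacts of all clock genes, had 128 at ZT12 and 113 at ZT18. One of its lost contacts was a fragment within Itpr1 (chr6:108270995-108272495, score 10.73), which also lost Itpr1 and Sumf1 and had no pair at all at ZT18. Nfil3 had 42 and 32 contacts, Nr1d1 9 and 8, Cry2 7 and 7, and Per3 4 and 3, while Cry1 had none in either list. Among the activators, Npas2 had 8 and 12 contacts and kept all 8, gaining among others a fragment 188 kb away (score 10.57) and the start of Rpl31 (8.92), both of which were listed at ZT0. Arntl, which encodes BMAL1, had 0 and 2 contacts, and Clock had 0 and 1. Of the PAR bZIP genes, Dbp had 24 and 19, Hlf 95 and 79 and Tef 17 and 17. Dbp lost fragments at Rras and Scaf1 (9.25) and at Bcl2l12 and Irf3 (9.38), 688 kb and 707 kb away, of which the first was listed at ZT6. Csnk1e, a kinase of the PER proteins, had 9 and 5. The median net change was -6 over the 7 tested repressors and -5 over the 3 PAR bZIP genes, against 0 over all tested promoters. In sum over the 7 repressors, 63 contacts were lost and 19 gained, and Bhlhe40 made up 26 and 11 of these.

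**Figure D4:**
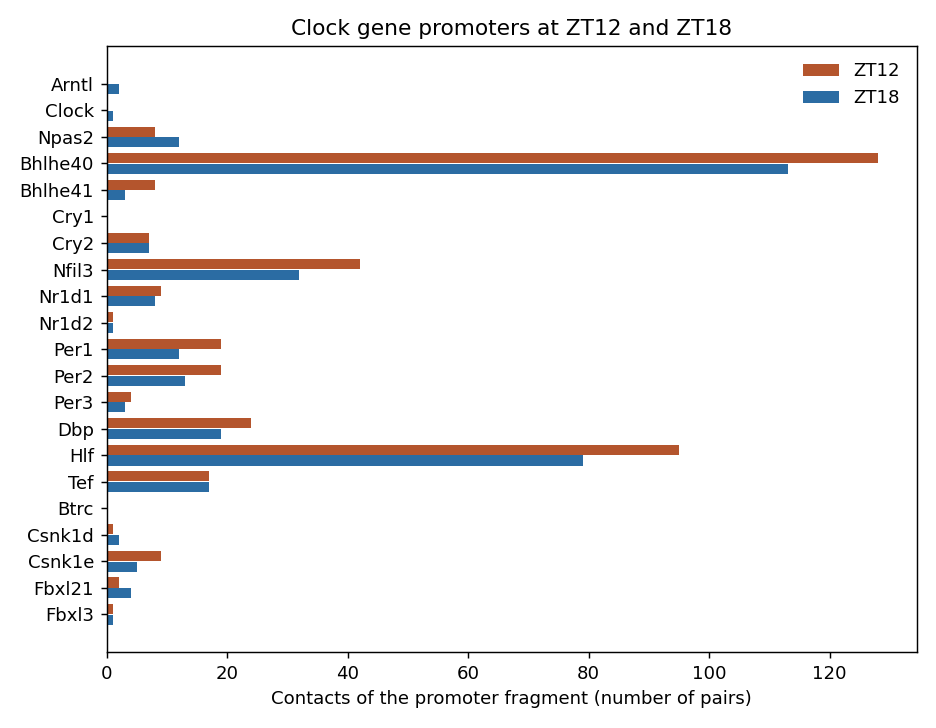
Number of contacts of the clock gene promoters reported here at ZT12 (orange) and ZT18 (blue). Bhlhe40 (128 and 113) and Hlf (95 and 79) have the most contacts, Per1 falls from 19 to 12, Npas2 goes from 8 to 12, and Cry1 and Btrc have none.

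The circadian genes of the study were set beside all promoters. The study classed a gene as circadian if its expression differed between any pair of sampled times. The acrophase of a gene is here the sampled time with its highest mean expression. Of 782 tested promoters of such genes, 31 gained (3.96%, 2.81 to 5.57) and 37 lost contacts (4.73%, 3.45 to 6.45), close to the 4.30% and 4.35% of all. Promoters of genes with an acrophase at ZT12 more often lost than gained, with 22 losing (7.38%, 4.93 to 10.9) and 7 gaining (2.35%, 1.14 to 4.77) of 298, and a median net change of -1. Those with an acrophase at ZT0 had 10 gaining (6.45%, 3.54 to 11.5) and 4 losing (2.58%, 1.01 to 6.45) of 155. For ZT6 the numbers were 8 gaining and 7 losing of 207, and for ZT18, 6 and 4 of 129. The split at ZT12 was also seen with a score of at least 7 in both lists, with 15 losing and 5 gaining. It depended on the order of the lists, a higher score minimum and how a contact was matched. In the order of the study's summary it turned, with 16 losing and 18 gaining, and with a score of at least 10, 2 lost and 3 gained. When another end within 10 kb counted as the same contact, 1 promoter of that acrophase lost and 2 gained, and without fragments that have no pair in the other list, 3 lost and 3 gained.

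Among the losing promoters of acrophase ZT12 were St3gal5, Per1 and, chosen after their values were seen, Stim2, a calcium sensor of the endoplasmic reticulum (39 to 25), Sult1c2, a sulfotransferase (32 to 21), and Itpr1, a calcium channel of the same organelle (15 to 8). Those of acrophase ZT12 that gained included Mfsd2a, a transporter of lysophospholipids (20 to 32), Srm, spermidine synthase (22 to 34), and Slmo2 (17 to 28). Of the genes with an acrophase at ZT0, Sco2 had the largest gain, followed by Tmie (11 to 26), and Prkaca, the catalytic subunit of protein kinase A, rose from 20 to 31. Ddc, aromatic amino acid decarboxylase, was a losing promoter of this acrophase (25 to 15).

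Genes of the feeding response and of other liver functions were examined by list, to be read beside the 4.30% of all tested promoters that gained and the 4.35% that lost contacts. Of all 10244 tested promoters, 4429 were higher at ZT18 and 4558 lower. In lipogenesis, 0 of 10 tested promoters were called in either direction, with 6 higher and 2 lower and a median net change of 2. In glucose use and insulin signalling 0 of 14 were called, with 7 higher and 7 lower. Of 7 gluconeogenesis genes, Sds, serine dehydratase, was called losing (15 to 9). In fatty acid oxidation and ketogenesis, Acadl, the long-chain acyl-CoA dehydrogenase, fell from 14 to 9 and was the only call among 11. Fdft1, squalene synthase, rose from 5 to 10 and was the only call among 13 genes of cholesterol synthesis and uptake. Abcc2, the canalicular export pump of conjugated bilirubin, fell from 9 to 4 and was the only call among 12 bile acid genes.

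In the list of urea cycle and amino acid breakdown, Tdo2, tryptophan dioxygenase, fell from 18 to 8, with 10 lost contacts of which 5 had a score of 7 or more, and none gained. It had 7 contacts at ZT0 and 24 at ZT6. Saa2, an acute phase protein, fell from 8 to 3 and was the only call among 19 plasma protein genes. Xbp1, a transcription factor of the unfolded protein response, rose from 1 to 7, the only call among 13 hepatocyte transcription factors. Hspa8, the constitutive HSC70 chaperone, rose from 9 to 15 and kept all 9 of its ZT12 contacts. No promoter was called among 7 tested genes of drug metabolism, 7 of ribosome biogenesis and 10 immediate early genes.

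Hepatocyte markers had 0 calls among 6 tested promoters and a median net change of 0. Markers of other liver cells gave 0 calls among 2 tested promoters for Kupffer cells and leukocytes, 6 for sinusoidal endothelium and 3 for stellate cells, and 1 among 3 for cholangiocytes, where Sox9 fell from 12 to 7. Of the 6 endothelial promoters 5 had more contacts at ZT18 and 1 had fewer, against 4429 higher and 4558 lower of all 10244. Their median net change was 3, with 37 contacts in all at ZT12 and 48 at ZT18. Of 64 tested ribosomal protein genes, 5 lost contacts (7.81%, 3.38 to 17.0) and 0 gained, with 34 lower and 23 higher. Of 24 Hox promoters, 3 lost (12.5%, 4.34 to 31.0) and 0 gained. Replication histone promoters had 3 gaining and 2 losing of 32, and olfactory receptors 7 and 9 of 161. These shares had wide intervals that held the 4.35% of all promoters that lost contacts.

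Motifs in the 250 bases before the gene start were counted on both strands over the 16859 protein-coding starts on a bait. These include starts on baits with too few contacts to be tested, which could not be called. An E-box was present in 42 of 421 gaining starts (9.98%, 7.47 to 13.2), 21 of 422 losing starts (4.98%, 3.28 to 7.49) and 1212 of all (7.19%, 6.81 to 7.59). The GC content of the windows was 57.56% for gaining, 56.45% for losing and 56.21% for all starts, and its part in these shares was not tested. D-boxes were in 4 gaining, 5 losing and 132 of all starts (0.783%), and the ROR element ANTAGGTCA, with N any base, was in 1, 2 and 82 (0.486%). A motif of this length is a match of letters, not a site of binding.

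Strong pairs that were present at 1 time and absent at the other were then examined. Of the 76144 ZT12 pairs with a score of 7 or more, 7351 (9.65%) were absent at ZT18, and of the 75834 at ZT18, 7133 (9.41%) were absent at ZT12. Most were close to the limit: 59.0% of the lost and 58.3% of the gained strong pairs had a score under 8, and 573 and 558 had a score of 10 or more. They spanned a median of 210 kb (205 to 215) and 223 kb (218 to 227), against 125 kb (124 to 126) for pairs of score 7 or more in both lists. Of the lost ones 52.9% were listed at ZT0 and 58.3% at ZT6, and of the gained ones 53.9% and 56.0%. At neither time were 26.9% and 27.4% listed.

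For most of these pairs the same promoter contacted a nearby fragment in the other list. A contact of the same bait with an end within 10 kb was found at ZT18 for 81.2% (80.3 to 82.1) of the lost pairs and at ZT12 for 78.0% (77.0 to 79.0) of the gained ones. In 37.1% (36.0 to 38.2) of the lost and 34.6% (33.5 to 35.8) of the gained strong pairs, an end had no pair of any kind in the other list. Within chromosomes, 923 lost and 1080 gained strong pairs had both ends listed and no such neighbour, of which 64 and 85 had a score of 10 or more.

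The promoters with the most strong pairs lost were Ghr, the growth hormone receptor, and AC100600.1, with 17 each, followed by Phkg1 and Arhgap33 with 14 each. Ghr lost 38 contacts of any score and gained 14, and Foxo1, a transcription factor restrained by insulin, lost 12 strong pairs and had 112 and 88 contacts. Neither reached the ratio. The most strong pairs were gained by Lrrc68 (19) and Cd3eap (17), which lie near each other on chromosome 7 and had 63 and 88 contacts and 86 and 109 contacts. Rhob, a small GTPase, gained 10 strong pairs, lost no strong pair and had 61 and 88 contacts. These promoters were named after their values were seen.

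The strongest exchanges lay in the Ugt1a region of chromosome 1. Ugt1a1 encodes the enzyme that conjugates bilirubin, and Trpm8 a cold-sensitive channel. The Ugt1a1 promoter (chr1:90108017-90110108) contacted chr1:90149720-90153188 with a score of 31.41 at ZT12, and this pair was absent at ZT18. At ZT18 it contacted the adjoining fragment, chr1:90153189-90154327, with 29.39, and that pair was absent at ZT12. The Heatr7b1 promoter made the same exchange (25.48 at ZT12, 21.21 at ZT18), as did the fragment of Hjurp and Trpm8 (21.03 and 19.67). At ZT0 and ZT6 all 3 promoters contacted both fragments, with scores from 13.19 to 24.14. The HindIII site between the fragments is the one shown in capitals above.

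A further fragment of the region, chr1:90119291-90123499, was listed only at ZT18, with the Hjurp and Trpm8 fragment (34.94) and Ugt1a1 (27.84), and not at ZT0, ZT6 or ZT12. Contacts with fragments on either side were in both lists, such as that of Ugt1a1 with chr1:90117407-90119290 (20.33 and 20.86) and with chr1:90176749-90181187 in Trpm8 (53.08 and 50.82). Each of the 3 exchanged fragments was missing from a whole list and not only from the contacts of 1 promoter. Whether such a fragment was not scored in that list was not tested.

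**Figure D5:**
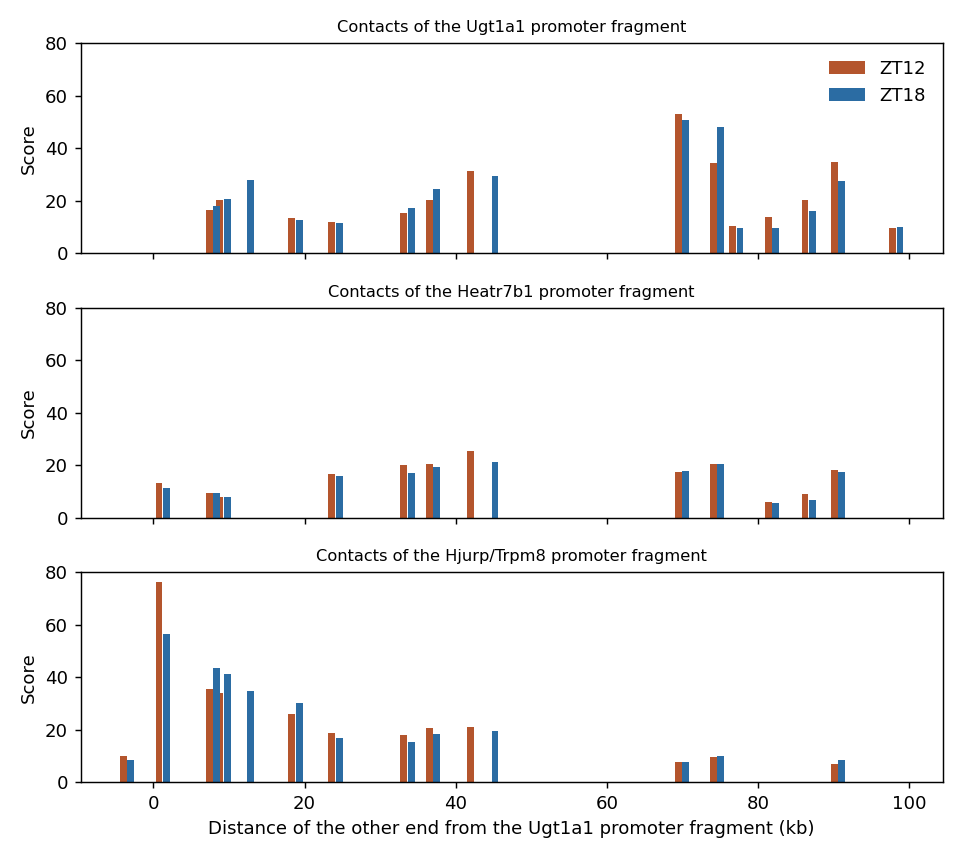
Scores of the contacts of 3 promoter fragments at ZT12 (orange) and ZT18 (blue) against the distance of the other end from the Ugt1a1 promoter fragment (kb). Each promoter has a ZT12 bar without a ZT18 bar at 42.4 kb and a ZT18 bar without a ZT12 bar at 44.7 kb, while most other contacts have both.

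Other strong pairs lost within chromosomes joined Syngr3 with Snhg9 (score 23.79), AC098726.1 in Birc6 with a fragment in Heatr5b 4153 kb away (23.71), Fstl5 with a fragment 2850 kb away (18.20) and the promoters of Mrpl20 and Agrn (18.06). The Syngr3 pair was in neither light-phase list, the Agrn pair scored 12.31 at ZT0 and 11.38 at ZT6. Gained ones joined Gm13330 with AL928557.1 in Mllt10 (20.46) and Dusp4, a MAP kinase phosphatase, with a fragment 625 kb away (19.41). Another joined Map3k12 with a U6 gene (18.50), and all 3 were listed at both ZT0 and ZT6. Except for Mrpl20 with Agrn, a bait of each pair contacted a fragment within 10 kb of the other end in the other list. These neighbours scored 10.28 for the Syngr3 pair, 13.2 for AC098726.1, 21.81 for Fstl5, 5.6 for Gm13330, 7.62 for Dusp4 and 9.45 for Map3k12. In the pairs of AC098726.1, Fstl5, Gm13330 and Dusp4, an end had no pair of any kind in the other list.

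Pairs between chromosomes were few, 71 at ZT12 and 85 at ZT18, but included the highest-scoring pair that was absent from the other list in each direction. Fragments at Gm11399 and at Sfi1 on chromosome 11 were paired with chr18:3009258-3015786 at ZT18 (383.02 and 322.63) and at ZT6 (368.37 and 375.98), and not at ZT0 or ZT12. A pair of C330019G07Rik on chromosome 5 with Gm15056 on chromosome 8 scored 35.48 at ZT12, and a pair of chr8:3754525-3755769 with the mitochondrial genome scored 29.73. Both were absent at ZT18 and listed at ZT0 and ZT6. A U6 fragment on chromosome 7 was paired with chromosome X at ZT12 (17.20). The chromosome 18 fragment had no pair of any kind at ZT0 or ZT12. In each of the named ZT12 pairs between chromosomes, an end likewise had no pair of any kind at ZT18. Whether these fragments were not scored in those lists was not tested.

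Strong switched pairs with both ends in both lists and no neighbouring contact were ranked by score, and most of the 10 highest in each direction joined 2 promoters. They are named after their values were seen. Those lost included Nfyc, a subunit of the CCAAT-binding factor NF-Y, with Zfp69 (16.52), and Dennd4a with Ptplad1 (15.47). Those gained included Klrb1b with Cd69, both receptors of leukocytes (13.97), Npr2 with Clta (13.83), Tcfe3 with Ftsj1 (13.39) and Ido2, an enzyme of tryptophan breakdown, with Adam32 (12.56). The pairs of Dennd4a, Tcfe3 and Ido2 were in neither light-phase list.

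Distal fragments, which hold no bait, were examined for joint changes. Of 13913 such fragments contacted by at least 3 promoters in a list, 875 (6.29%) lost at least 3 promoters and 934 (6.71%) gained at least 3, and 120 did both. A fragment in Pde6g and Tspan10 (chr11:120307778-120309775) lost all 7 of its promoters, among them Nploc4, Mrpl12, Fscn2 and Anapc11, and had none at ZT18. A fragment with no annotated gene (chr6:51120425-51121570) fell from 10 promoters to 3. The promoters it lost, 987 to 1955 kb away, included Igf2bp3, Hoxa3, Hoxa4, Hoxa5, Hoxa9 and the shared fragment of 5730596B20Rik and 2700086A05Rik, with a top score of 8.85. A fragment at chr15:101814898-101815637 lost 7 promoters that included Nr4a1, an immediate early nuclear receptor, Eif4b and Igfbp6. On chromosome 7, 2 fragments (chr7:19631607-19631835 in Sympk and chr7:20050707-20051824) lost 7 promoters each, Eml2 among both.

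Among distal fragments that gained promoters, one in Leng8 (chr7:4092878-4096571) went from 6 to 14 promoters, with Cnot3, Mboat7, Ppp6r1 and Epn1 among the gained. A fragment in the keratin gene Krt33a (chr11:99870874-99874384) went from 9 to 16 and one beside it (chr11:99860844-99866577) from 5 to 13, with keratin-associated genes gained by both at top scores of 10.88 and 10.36. A fragment at the embryonic globin genes (chr7:110988567-110991229) gained 9 and lost 7 promoters, and all 9 gained were olfactory receptor genes. A fragment in Mink1 (chr11:70381419-70383610) went from 5 to 12, gaining Eno3, Chrne, Camta2, Psmb6 and Rnf167.

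The other steps through the day share lists with this one, so their values stand beside it only as a description. From ZT12 to ZT18, 55.6% of pairs were in both lists, against 53.3% from ZT0 to ZT6, 53.6% from ZT6 to ZT12 and 53.6% from ZT18 to ZT0. Gaining and losing promoters numbered 817 (7.93%) and 410 (3.98%) from ZT0 to ZT6, 607 (5.83%) and 690 (6.62%) from ZT6 to ZT12, and 412 (4.02%) and 689 (6.73%) from ZT18 to ZT0. The step within the dark phase thus had the most even numbers in both directions. Gained and lost pairs of a step differ only by the difference in length of its lists. The ZT12 and ZT18 lists were nearly equal in length, so the evenness cannot be read as a trait of the dark phase.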

How the data were processed

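Promoter Capture Hi-C reads from liver were mapped to mm9 and filtered with HiCUP, and the authors merged the pools of each time before they called interactions with CHiCAGO. Versions are not given in the sources used here. The authors deposited a CHiCAGO score for each listed pair. The background is fitted per list, so depth changes how many pairs pass the minimum. The lists hold no read counts. The study gives read totals per pool, which were not used here.

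Lists were read with pandas 2.3.3 in python 3.11.15, and pairs were taken as unordered. Fragments given as baits at any of the 4 times were used as baits throughout. Gene starts came from the GENCODE annotation of the mm9 build, and circadian genes from the study's list. Named were the 10 promoters with the largest net change and the 10 highest strong switched pairs in each direction, the clock genes, called members of other lists (up to 4 a list) and up to 5 distal fragments in each direction, and others are said to be chosen after their values were seen. Some genes that these rules name are not reported here. The comparison was tested on simulated data. Alternatives varied the score minimum, the number of pairs, the matching of ends, the call rule and the order of the lists. Members and lists were chosen with earlier results of these data known.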

Additional observations from a re-analysis of the deposited data

How the results depend on the processing

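No paired analysis was possible because each time has 1 list called on its merged pools, and no replicate could be left out for the same reason. Values are given for lost or losing first and gained or gaining second. With a score of at least 7 in both lists, 55023 pairs were shared, 21121 lost and 20811 gained, and with at least 10, 24651, 9035 and 9005. Strong pairs absent from the other list numbered 573 and 558 at a score of 10 in place of 7, and counted 21121 and 20811 where the other list also had to reach 7. When another end within 10 kb counted as listed, 12533 and 13321 pairs and 1382 and 1568 strong pairs remained unmatched. Without fragments that have no pair in the other list, an alternative chosen after seeing the data, 4624 and 4662 strong pairs were absent.

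Losing and gaining promoters numbered 225 and 232 at a score of 7, 73 and 91 at 10, 66 and 105 with the 10 kb match, 912 and 904 with a net change of 3, 145 and 164 with 8, 158 and 169 with a ratio of 2, and 202 and 220 without fragments listed once. Of the 446 losing and 441 gaining promoters, 60 and 97 were still called with the 10 kb match and 63 and 55 at a score of 7. Circadian promoters numbered, in the same order, 23 and 17, 6 and 9, 4 and 7, 67 and 63, 10 and 14, 12 and 10, and 13 and 15. Those of acrophase ZT12 numbered 15 and 5 at a score of 7, 2 and 3 at 10, and 1 and 2 with the 10 kb match. They numbered 30 and 20 with a net change of 3, and 6 and 4 with 8. With a ratio of 2 they numbered 5 and 2, and without fragments listed once 3 and 3.

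The median distance was 164 and 168 kb at a score of 7, 154 and 155 kb at 10, 216 and 224 kb with the 10 kb match and 175 and 181 kb as the gap between fragments. The promoter-promoter share was 16.8% and 17.6%, 19.3% and 20.5%, 24.1% and 25.3%, and 13.5% and 14.2% with the baits of the same list only.

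In the order of the study's summary, 625 promoters lost and 726 gained contacts, 163 of the losing ones gained and 122 of the gaining ones lost, 65 circadian promoters lost and 34 gained contacts, and of acrophase ZT12, 16 lost and 18 gained. The median distance was 170 and 197 kb and the promoter-promoter share 16.8% and 12.4%. The net change of 19 of the 20 named promoters turned: Snord69 to -43, Sco2 to -17, Nipa2 to -22, Mir296 to -2, A930016O22Rik to -9, Gatad2b to -5, Pmm2 to -13, Gtf2a1 to -12, Hras1 to -34, AC100600.1 to 59, Kcnk16 to 5, Gm17664 to 32, Gm10008 to 19, Phkg1 to 25, Mxi1 to 6, U6 to 16, St3gal5 to 16, Aqp7 to 18 and Ddb2 to 2. Gm10008 also turned at a score of 10, to 1. Of all called promoters, 8 losing and 7 gaining ones kept their call in this order. The named and called promoters were chosen by their change up to the ZT18 list, and this order takes that list as its start. A turn of many of them can follow from that choice alone, so their number does not measure how far directions depend on the labels. The directions are given for the labels, under which Arntl has the contact numbers that the paper describes. The cause of the other changes was not tested. Taking the same number of top-scoring pairs moved no count by 1.5 times.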
